A study of Drosophila melanogaster with 2 samples.

Results

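The regions described here are the promoter peaks of the fly protein CG4360 that do not carry a CAA repeat under their summit. A peak counted as a promoter peak when any annotated transcript start lay at most 500 bp from its summit, and the repeat was the word CAACAAC or its reverse complement within 50 bp to either side of the summit. Of 5692 peaks on arms 2L, 2R, 3L, 3R, 4 and X in the list that the authors named conservative, 2353 were promoter peaks, and 1483 of those lacked the repeat. That was 63.0% of promoter peaks and 26.1% of all peaks on these arms. The other 870 promoter peaks carried the repeat. The samples were whole Drosophila melanogaster embryos aged 0 to 24 h, from transgenic flies that expressed CG4360 fused to enhanced green fluorescent protein (eGFP). There was 1 group of 2 biological replicates, and an antibody against GFP was used on chromatin sonicated to 200 to 800 bp. The labels used here do not say which promoter drove the fusion, whether more than 1 line was used, or how many embryos were pooled. A control experiment named in the labels was not analysed here, and read depth is unknown. Membership depended on position and sequence, and on the authors' threshold, an irreproducible discovery rate (IDR) of at most 0.01. IDR is low for calls that rank high, and at similar places, in both replicates.

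CG4360 encodes a zinc finger protein, a class of protein with short folded stretches that are held by zinc and often contact DNA. Promoters in Drosophila fall into broad types. Promoters of genes with regulated expression often carry a TATA box, an initiator or a downstream promoter element, and many developmental promoters carry GA repeats, which GAGA factor (the product of Trl) binds. Promoters of genes used in most cells more often carry the DNA replication-related element (DRE) and the elements known as Ohler motifs. Genes for ribosomal proteins and other parts of the translation machinery start at a pyrimidine-rich initiator known as TCT. Divergent promoters serve a pair of genes that are transcribed away from each other.

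The windows of 5 of the 7 strongest peaks without the repeat show what stood under the summits. They are given in the forward strand of dm6, read from the RefSeq copy of the release 6 genome. Capitals mark CAACAA, the near copy CAGCAA or the near copy CAACAG, on either strand, which is how close each window came to the repeat. Windows were shortened where over 30 bases lay in an annotated untranslated region. The strongest lay at toy, a Pax6 gene of eye and head development, at chr4:989530-989630.
toy: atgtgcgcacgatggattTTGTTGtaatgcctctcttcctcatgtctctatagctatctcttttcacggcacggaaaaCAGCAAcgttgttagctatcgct
The next was at Ugalt, a UDP-galactose transporter, at chrX:2703826-2703926, and held none of these words.
Ugalt: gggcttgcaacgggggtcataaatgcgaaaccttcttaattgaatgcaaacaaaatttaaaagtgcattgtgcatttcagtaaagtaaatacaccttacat
At ago, an F-box protein that marks Cyclin E for destruction, the window was chr3L:4252270-4252370.
ago: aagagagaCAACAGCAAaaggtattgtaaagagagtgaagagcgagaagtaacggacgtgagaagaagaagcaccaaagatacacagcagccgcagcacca
At CG8281 the window was chr3L:7912432-7912492.
CG8281: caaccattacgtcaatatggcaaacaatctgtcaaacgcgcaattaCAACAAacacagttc
At Glys, glycogen synthase, it was chr3R:15147560-15147660.
Glys: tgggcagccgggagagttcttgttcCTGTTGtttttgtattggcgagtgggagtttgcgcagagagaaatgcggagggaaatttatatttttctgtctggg
Of these 5 windows, 4 held at least 1 of the words in capitals, as did 410 of all 1483 windows (27.6%). Among relaxed calls, promoter calls without the repeat that missed the threshold on IDR, the share was 19.7%. These shares were counted after the windows were seen. Tina-1 and grh, also among the 7 strongest, are not shown.

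Other windows held long runs of A and T. The windows of 3 of the 4 strongest divergent pairs are given on the forward strand, and capitals mark runs of 7 or more bases made up of A and T alone. CG7601 and CIA30, an assembly factor of respiratory complex I, start away from each other around chr3R:29736795-29736895.
CG7601 and CIA30: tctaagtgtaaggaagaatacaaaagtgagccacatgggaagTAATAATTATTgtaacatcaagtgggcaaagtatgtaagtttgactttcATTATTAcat
Tcs5 and CHMP2B, a subunit of the membrane-cutting ESCRT machinery, lie to either side of chr3L:5139452-5139552.
Tcs5 and CHMP2B: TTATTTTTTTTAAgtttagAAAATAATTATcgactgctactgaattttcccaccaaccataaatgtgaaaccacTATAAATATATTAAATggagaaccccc
Art3, an arginine methyltransferase, and mRpS10, of the mitochondrial ribosome, share chr3R:15229486-15229586.
Art3 and mRpS10: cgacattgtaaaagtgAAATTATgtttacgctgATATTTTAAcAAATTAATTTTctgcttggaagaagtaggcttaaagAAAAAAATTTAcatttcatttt
Other windows held GA repeats. The carrier shown is oc (ocelliless, also called orthodenticle), a homeobox gene of head development, at chrX:8650900-8651000 on the forward strand, with GAGAGAG on either strand in capitals.
oc: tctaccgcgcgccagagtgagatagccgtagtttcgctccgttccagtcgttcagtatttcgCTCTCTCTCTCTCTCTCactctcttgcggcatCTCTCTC
The windows of the divergent pairs and of oc were chosen after their values were seen.

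Peaks without the repeat were weaker than promoter peaks with it in both replicates. The signal value that the authors deposited for each peak, on a scale that the files leave unnamed, had a median of 87.4 without the repeat, 206.5 with it, and 21.1 for the 18974 relaxed promoter calls without the repeat. Relaxed calls are those in the authors' ranked list with an IDR above the threshold. The middle 50% of signals ran between 66.4 and 130.1 without the repeat, and between 116.0 and 409.1 with it. The ratio of the medians, without over with, was 0.423 for the pooled value, 0.393 in replicate 1 (48.3 against 122.9) and 0.491 in replicate 2 (43.4 against 88.4). Replicate values were those of the matching call, which was found for 1478 of the 1483 peaks in each replicate. With all promoter peaks ordered by signal in 10 equal bins, the share without the repeat was 90.3% in the lowest bin and 14.5% in the highest. A signal of at least 300 was reached by 72 peaks without the repeat (4.86%) and by 305 with it (35.1%). No test was made on the signal, because strong calls also pass the threshold more easily.

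**Figure D1:**
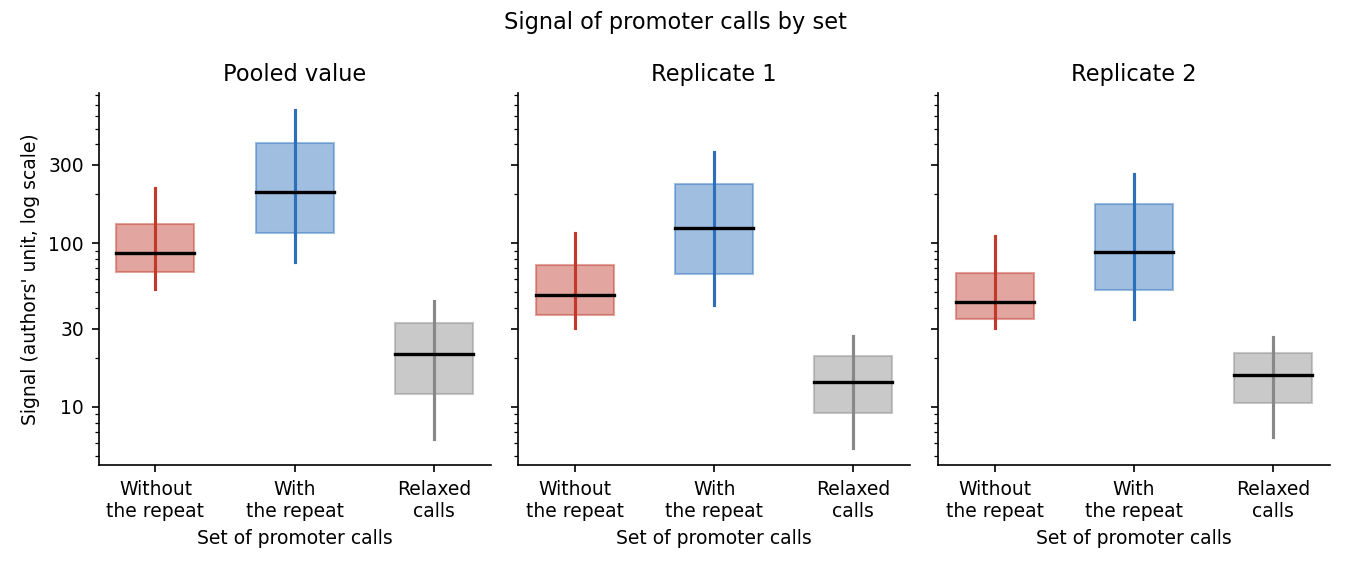
Signal of promoter calls on a log axis, for the pooled value and in each replicate. Boxes span the middle 50% of calls, lines run between the 10% and 90% points, and black bars are medians (pooled 87.4 without the repeat, 206.5 with it, 21.1 for relaxed calls).

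Peaks without the repeat were also found less often in the lists of the single replicates. At a reciprocal overlap of at least 0.5, 55.0% of them matched a peak in the replicate 1 list and 43.8% in the replicate 2 list, while 32.9% (95% interval 30.5 to 35.4) matched both and 34.2% matched neither. For promoter peaks with the repeat the shares were 83.2%, 67.1%, 60.5% (57.1 to 63.7) and 10.1%.

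The strongest peaks were strong in both replicates, which the ranking by pooled signal and the IDR threshold favour. The toy peak had a pooled signal of 1750, with 1069 in replicate 1 and 673.0 in replicate 2. Ugalt followed with 1643, with 787.0 in replicate 1 and 874.3 in replicate 2. Tina-1 had 1521 (849.7 and 674.5), ago 1053 (604.5 and 439.1) and CG8281 899.8 (505.4 and 387.1). All 5 stood in both replicate lists. Behind them came grh at 837.2 (480.1 and 354.6), a transcription factor of the epidermis, Glys at 823.7 (571.9 and 274.4) and oc at 816.6 (486.6 and 311.9). In ranks 9 and 11 stood peaks near noncoding genes, lncRNA:CR44723 at 769.0 (453.4 and 315.6) and lncRNA:CR45438 at 721.5 (411.0 and 310.6), the second of them 521 bp from a start of HDAC1, a histone deacetylase. The other 5 of the top 15 were CG14100 at 758.8, CG7601 at 625.7, caup, an Iroquois homeobox gene, at 622.7, ph-p, a Polycomb gene, at 620.3 and Chro, a chromodomain protein found in the interbands of polytene chromosomes, at 613.4. Of these 15 peaks, Ugalt, CG14100 (328.0 and 434.5), CG7601 (301.3 and 345.0), ph-p (248.5 and 379.2) and Chro (266.3 and 345.1) were higher in replicate 2 than in replicate 1. The other 10 were higher in replicate 1.

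The weakest peaks had pooled values far below those of their matching replicate calls. CG2811, tou and scrt, a neural zinc finger gene, had pooled signals of 2.14, 2.33 and 2.39. The matching calls in the replicates had 82.6 and 49.9 for scrt, 79.2 and 52.7 for tou, and 66.2 and 53.4 for CG2811. A matching call need not be particular to a summit, since some neighbouring summits were given the same replicate values. At PIG-M and NC2alpha, summits with pooled signals of 96.4 and 6.10 both had 65.1 and 36.1. At SC35 and eRF3, summits of 119.9 and 13.1 both had 70.4 and 49.6. Such weak summits were therefore not shown to be strong in the replicates. A pooled value below both replicate values was found at 104 peaks without the repeat (7.01%) and at 8 with it (0.920%). Another summit without the repeat lay within 500 bp of 193 of the 1483 peaks (13.0%), and a summit with it within 500 bp of 68 (4.59%). How many of the 104 shared a replicate call with a neighbour was not counted, so the contrast with the 8 was not tested. Leaving the 104 and the 8 out, a choice made after seeing the data, moved none of the counts of features, words and genes below by over 1.5 times.

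Summits without the repeat stood close to the start, and upstream of it, more often than summits with the repeat. Against promoter peaks with the repeat, 9 of 47 features tested were more frequent without it (19.1% of features) and 8 were less frequent (17.0%), by 2-sided Fisher exact tests adjusted by the Benjamini-Hochberg method. Neighbouring peaks are not independent, and these p-values cover counting error only. A summit upstream of the nearest start was found at 56.8% of peaks without the repeat and 39.0% with it, an odds ratio of 2.06 (95% interval 1.74 to 2.45, adjusted Fisher p = 5.71e-16). The share within 200 bp upstream was 41.8% without the repeat, 25.3% with it and 22.0% among relaxed calls. A summit within 100 bp of the start was found at 43.4% and 32.9% (1.57, 1.32 to 1.87, adjusted Fisher p = 2.09e-06). With promoters defined by 250 bp the ratio for summits within 100 bp was 1.15 (adjusted Fisher p = 0.372). Among relaxed calls 27.1% of summits lay within 100 bp (odds ratio 2.07 for peaks without the repeat) and 41.3% upstream (1.88). In windows of 40 to 50% GC the upstream ratio against relaxed calls was 1.04 (adjusted Fisher p = 0.914).

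**Figure D2:**
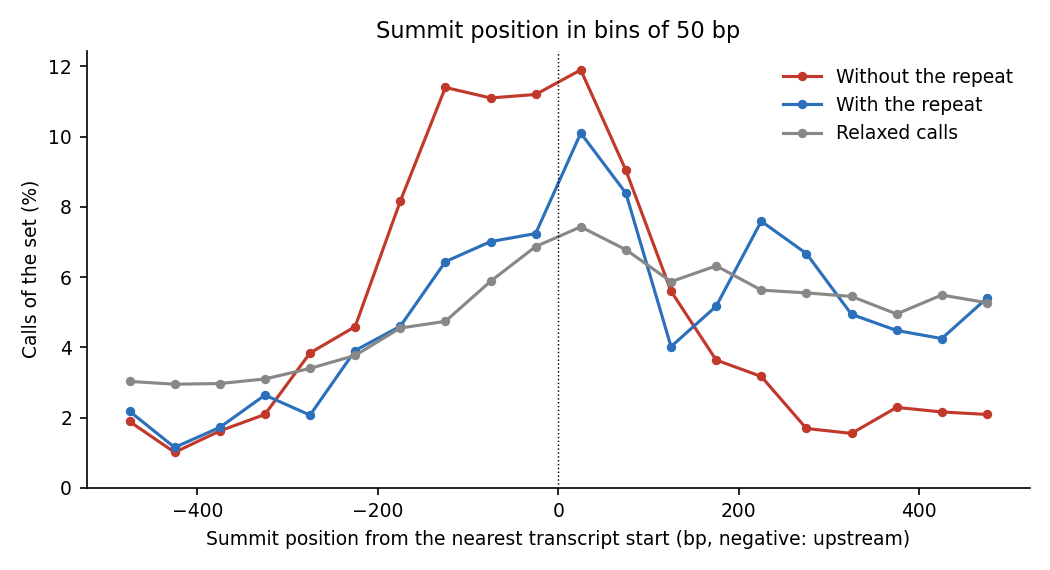
Share of summits in bins of 50 bp along the distance to the nearest transcript start, negative upstream. Peaks without the repeat had 41.8% of their summits in the 200 bp before the start, against 25.3% with the repeat and 22.0% among relaxed calls.

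Divergent promoters were more frequent among peaks without the repeat. Starts of different genes pointing away from each other, at most 500 bp apart and both within 500 bp of the summit, were found at 342 of these peaks (23.1%) and at 102 of those with the repeat (11.7%). The odds ratio was 2.26 (1.78 to 2.87, adjusted Fisher p = 4.18e-11). Pairs of protein-coding genes gave 20.8% and 10.3% (2.28), starts of 2 or more genes 29.7% and 18.2% (1.90), and 3 or more distinct starts 11.9% and 5.98% (2.13, adjusted Fisher p = 7.90e-06). These 4 features overlap, so they are not separate evidence. With gene 5′ ends only, 3 or more starts gave 1.18 (adjusted Fisher p = 0.827). The divergent ratio moved with the promoter distance, with 4.10 at 250 bp to a start and 1.58 at 1000 bp, and passed the threshold at both. The summit lay between the paired starts at 178 of the 342 divergent peaks (52.0%, 46.6 to 57.4) and at 21 of 102 with the repeat (20.6%, 13.2 to 29.7). In the list of replicate 1 alone the divergent odds ratio was 2.27, and in that of replicate 2 alone 2.46. Base composition moved with this result: among windows of 40 to 50% GC the ratio was 1.54 (adjusted Fisher p = 0.0892), 3 or more starts gave 1.66 (adjusted Fisher p = 0.132), and upstream summits gave 1.34 (adjusted Fisher p = 0.133). The GC restriction was chosen after the data were seen, and the part of base composition in the result was not tested further.

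The 6 strongest divergent peaks had signals above 500. CG7601 and CIA30, with starts 220 bp apart, had a pooled signal of 625.7. Chro and Ssl1, a subunit of the general transcription factor TFIIH, shared a peak of 613.4 with starts 105 bp apart. Tcs5 and CHMP2B had 604.5 (289.0 and 339.7 in the replicates), and Art3 and mRpS10 had 602.5 (243.3 and 364.5). Next came mRpS23 and CenG1A at 536.9 (271.0 and 263.4), then Mppe and pds5, a cohesin regulator, at 510.4 (306.7 and 199.4). In 5 of these 6 the summit lay between the starts, and Chro with Ssl1 was the exception.

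Of the sequence elements, 3 were more frequent without the repeat. The pyrimidine initiator TCT, searched as CTTT with 2 pyrimidines before and 1 after it on the sense strand, stood at the nearest start of 46 peaks without the repeat (3.10%) and of 11 with it (1.26%). The odds ratio was 2.50 (1.29 to 4.85, adjusted Fisher p = 0.0159), and 1.05% of all 23584 distinct starts carried it. This call was lost in each replicate list, with 2.05 (adjusted Fisher p = 0.164) in that of replicate 1 and 1.96 (0.198) in that of replicate 2. GATAAG, which GATA factors bind, was at 5.12% and 2.53% (2.08, adjusted Fisher p = 0.00687). A tracts, runs of AAAAAAA, were at 11.4% and 7.47% (1.59, adjusted Fisher p = 0.00708). GATAAG was in 5.30% of windows around all starts, and A tracts were in 8.09%. The GATA ratio was 1.17 (adjusted Fisher p = 0.757) in the replicate 1 list and 1.47 (0.421) in the replicate 2 list, and the A tract ratio was 1.37 (0.156) in the replicate 1 list. Windows had a median GC content of 42.6% without the repeat and 47.5% with it. In windows of 40 to 50% GC the A tract (1.17, adjusted Fisher p = 0.770) and GATA (1.92, 0.157) calls were lost, while TCT gave 5.05 (0.00171). Over 14 alternatives each, the TCT and A tract calls were kept in 9 and the GATA call in 7. All window elements were searched on both strands and may overlap one another.

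CAG and CA repeats were less frequent without the CAA repeat than with it. The near copy CAGCAAC was at 3.71% of peaks without the repeat and 32.0% with it, and CAACAGC was at 3.03% and 26.7%. Against relaxed calls CAGCAAC was more frequent without the repeat, at 3.71% and 2.48% (1.52, adjusted Fisher p = 0.0140), a call lost in the replicate 1 list (1.48, adjusted Fisher p = 0.0602) and kept in 9 of 13 alternatives. The repeat can run into such copies, so these shares may overlap with the rule. CAGCAGC was at 4.05% and 20.3% (0.165), and CACACACA at 3.30% and 9.08% (0.342). Among relaxed calls CAGCAGC was at 4.23% (0.954, adjusted Fisher p = 0.885) and CACACACA at 2.49% (1.34, adjusted Fisher p = 0.0983). The word CAGCTG, an E-box that basic helix-loop-helix factors bind, was at 5.06% and 8.97% (0.541, adjusted Fisher p = 0.00103), and the Grainyhead word AACNGGTT at 1.08% and 2.53% (0.420, adjusted Fisher p = 0.0299). Arm X held 15.7% and 22.6% (0.637, adjusted Fisher p = 1.42e-04), and noncoding RNA genes were the nearest start at 7.62% and 10.7% (0.689, adjusted Fisher p = 0.0347). The E-box call was lost with windows reaching 100 bp from the summit (0.826, adjusted Fisher p = 0.216) and in those of 40 to 50% GC (0.810, adjusted Fisher p = 0.766). The Grainyhead call was lost in both replicate lists (0.511 and 0.333, adjusted Fisher p = 0.156 and 0.0598 in replicates 1 and 2), and those of arm X and noncoding RNA in the replicate 2 list (0.749 and 0.788). In windows around all starts, from which the full repeat was not barred, CAGCAAC was found in 2.65% and CAACAGC in 2.70%. There CAGCAGC was found in 3.37%, CACACACA in 1.90%, CAGCTG in 7.83% and AACNGGTT in 1.32%.

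**Figure D3:**
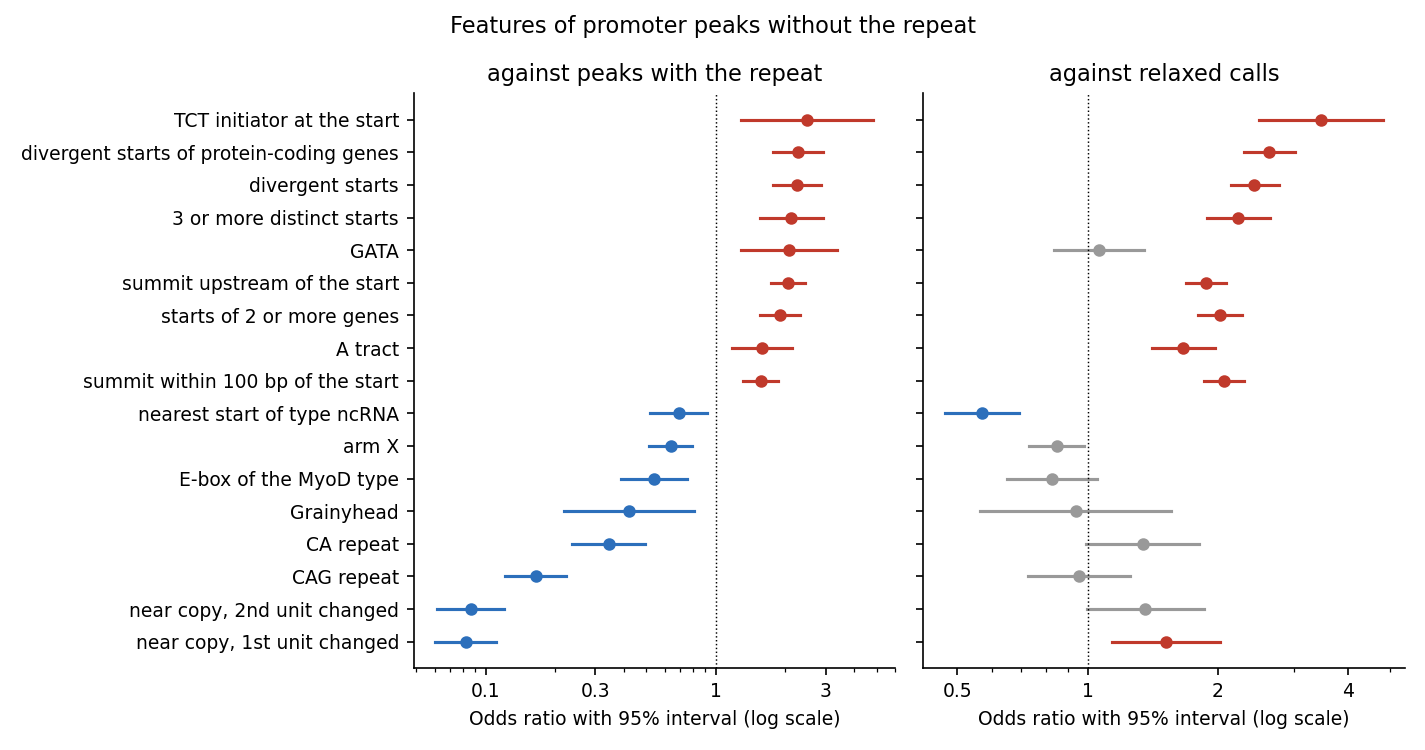
Odds ratios with 95% intervals on log axes for the 17 features that differed between promoter peaks without and with the repeat (left) and for the same features against relaxed calls (right). Red is more frequent, blue less frequent and grey not past the adjusted threshold. Divergent starts stood at 2.26 and 2.43, and GATA at 2.08 and 1.06.

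Several core promoter elements were more frequent at the peaks than at relaxed calls. Of 48 features tested, 18 were more frequent at peaks without the repeat (37.5%) and 4 less frequent (8.33%). TCT was at 3.10% and 0.917% (odds ratio 3.46), and the GA repeat at 6.20% and 2.20% of windows (2.94, adjusted Fisher p = 1.22e-15). CAACAA, which is 2 units of the repeat, was at 17.6% and 7.79% (2.53, adjusted Fisher p = 1.45e-30) although the full repeat was barred by the rule from both sets. The DRE word TATCGATA was at 1.82% and 0.875% (2.10). The DRE core ATCGAT did not pass, at 4.32% and 4.31% of windows (1.00) and around the start at 15.4% and 15.9% (0.967, adjusted Fisher p = 0.802). Ohler motif 7, searched as CATCNCTA, was at 2.02% and 0.991% (2.06), and Ohler motif 6 around the start at 1.89% and 0.817% (2.34). Ohler motif 6 in windows (2.48, adjusted Fisher p = 0.0891) and Ohler motif 1 in windows (1.52, 0.177) or around the start (1.34, 0.0727) did not pass. The initiator TCAGT was at 14.6% and 11.1% of starts (1.36), and the downstream promoter element, searched as AGACG or AGTCG or GGACG or GGTCG, at 13.1% and 9.10% (1.51). The TATA box, TATAAA between 45 and 20 bp before the start, went the other way, with 3.24% and 6.71% (0.465, adjusted Fisher p = 6.09e-08). Divergent starts were at 23.1% and 11.0% (2.43, adjusted Fisher p = 2.21e-35), and the ratio was 2.02 (adjusted Fisher p = 1.10e-06) in windows of 40 to 50% GC. A nearest gene with 1 annotated start was at 46.7% and 62.7% (0.520).

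Some of these calls against relaxed calls did not hold in every list. In the replicate 2 list DRE gave 1.28 (adjusted Fisher p = 0.581), Ohler motif 7 1.61 (0.223) and Ohler motif 6 1.59 (0.232). At an IDR of at most 0.001 these 3 calls were lost too (2.06, 1.99 and 2.00), as was that of the downstream element (1.18, adjusted Fisher p = 0.351). With promoters defined by 250 bp, the calls of DRE (1.62, adjusted Fisher p = 0.0653) and Ohler motif 7 (1.57, 0.0884) were lost. In windows of 40 to 50% GC the initiator (1.37) and TATA box (0.568) calls were lost, both with an adjusted Fisher p of 0.0782, as were those of DRE (2.16) and Ohler motif 7 (1.83). Against relaxed calls the TCT and GA repeat calls were kept in all 14 alternatives run for each.

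For comparison, windows around all distinct starts held the GA repeat in 1.52%, CAACAA in 10.9%, TATCGATA in 3.76% and CATCNCTA in 2.91%. The full repeat was not barred from these windows, and the 3.14% that carried it also count as CAACAA. For TATCGATA and CATCNCTA the shares at all starts lie above the 1.82% and 2.02% of peaks without the repeat. Windows of all starts are centred on the start. Summits lay at a median of 119.0 bp from it without the repeat and 209.0 bp among relaxed calls, and the part of that distance was not tested. At the start itself, TATAAA was found in 6.89%, TCAGT in 2365 of 23584, the downstream element in 8.24% and Ohler motif 6 in 0.865%. Between peaks without and with the repeat, the GA repeat (6.20% and 5.63%, 1.11, 0.775 to 1.58), TATCGATA (1.82% and 1.49%, 1.22, 0.627 to 2.38) and the TATA box (3.24% and 2.87%, 1.13, 0.692 to 1.85) did not pass the test. Nor did the initiator (14.6% and 14.0%, 1.05), the downstream element (13.1% and 14.0%, 0.928), Ohler motif 6 around the start (1.89% and 2.30%, 0.818) and Ohler motif 7 (2.02% and 1.72%, 1.18).

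All words of 7 bases were also compared, counting a word and its reverse complement as 1. Of 8191 words tested against relaxed calls, 224 were more frequent at peaks without the repeat (2.73%) and 115 less frequent (1.40%). The first was CAACAAA, at 12.5% of peaks and 3.79% of relaxed calls (odds ratio 3.62, adjusted Fisher p = 6.21e-36). Words overlapping a better one by 5 or more bases at an end were passed over, among them ACAACAA (adjusted Fisher p = 6.14e-35), AACAACA (7.55% and 2.02%, adjusted Fisher p = 1.33e-24) and AACAAAA (14.3% and 6.38%, adjusted Fisher p = 1.01e-21). The next word outside that overlap was CTCTCTC, the GA repeat read from the other strand, at 6.20% and 2.20% (2.94). Then came CAAAAAC at 8.77% and 3.82% (2.42), AAACAAC at 6.74% and 2.56% (2.75), and AAATAAT at 9.64% and 4.44% (2.30, adjusted Fisher p = 6.04e-13). Words made only of A and T were 58 of the 224, or 25.9%, while they were 64 of all 8191. Against promoter peaks with the repeat, AAATAAT was also more frequent without it (9.64% and 1.72%, 6.08, adjusted Fisher p = 2.57e-13). CAACAAA and AAACAAC were less frequent without the repeat (12.5% and 28.3%, then 6.74% and 19.3%), which the rule bears on, since both words are pieces of the repeat with 1 more base.

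The leading words differed with base composition. The peaks were split into 4 bins of about equal size by the GC content of the window, and each bin was set against relaxed calls of the same GC range. This split was chosen after the data were seen. In the lowest bin, 393 peaks with 12.9% to 32.7% GC, no word passed the adjusted threshold against 2367 relaxed calls (0 of 8191, 0%), with 172 words above at an unadjusted Fisher p under 0.05. The word with the lowest p was AAATAAT, at 24.2% and 15.2% (1.78, adjusted Fisher p = 0.153). In the second bin 13 words passed (0.159%), led by ACAACAA at 18.4% and 4.18% (5.18, adjusted Fisher p = 6.33e-18), and 7 of the 13 contained AACAA on either strand. In the next bin 28 passed (0.342%), led by CAACAAA at 16.9% and 4.15% (4.70). In the highest bin, with 51.5% to 76.2% GC, 68 passed (0.830%), led by CTCTCTC at 14.4% and 2.94% (5.57, adjusted Fisher p = 3.19e-15), while CAA words were 7 of the 68. Whether the bins differ from each other in these ratios was not tested.

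The lowest GC bin had most of its summits upstream of the start. Its summits were upstream of the start in 85.2%, against 50.1%, 42.1% and 47.5% in the next 3 bins. Relaxed calls of the same ranges had 68.9%, 49.5%, 37.7% and 28.5%, so low GC and an upstream place went together there too. Divergent starts were at 35.4%, 25.7%, 18.0% and 11.9% of peaks from the lowest to the highest bin, against 16.4%, 11.7%, 10.8% and 8.67% of relaxed calls. Leaving out divergent promoters, 219 of 254 summits (86.2%) in the lowest bin were still upstream. CAACAA was at 8.91% of the lowest bin, against 9.59% of its relaxed calls, and at 28.2% of the second bin, against 10.5%. The median pooled signal was 106.1, 90.2, 81.2 and 73.8 in the 4 bins, and 44.5%, 36.0%, 25.5% and 24.4% of peaks stood in both replicate lists. Promoter peaks with the repeat had medians of 136.1, 184.6, 236.0 and 224.1 from the lowest to the highest bin, so theirs was lowest where that of peaks without the repeat was highest. Only 22 peaks with the repeat (2.53%) fell in the lowest range. Replicate 2 exceeded replicate 1 at 55.2% of the lowest bin and at 39.3%, 35.2% and 144 of 360 peaks of the others. These binned values are descriptions and were not tested.

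**Figure D4:**
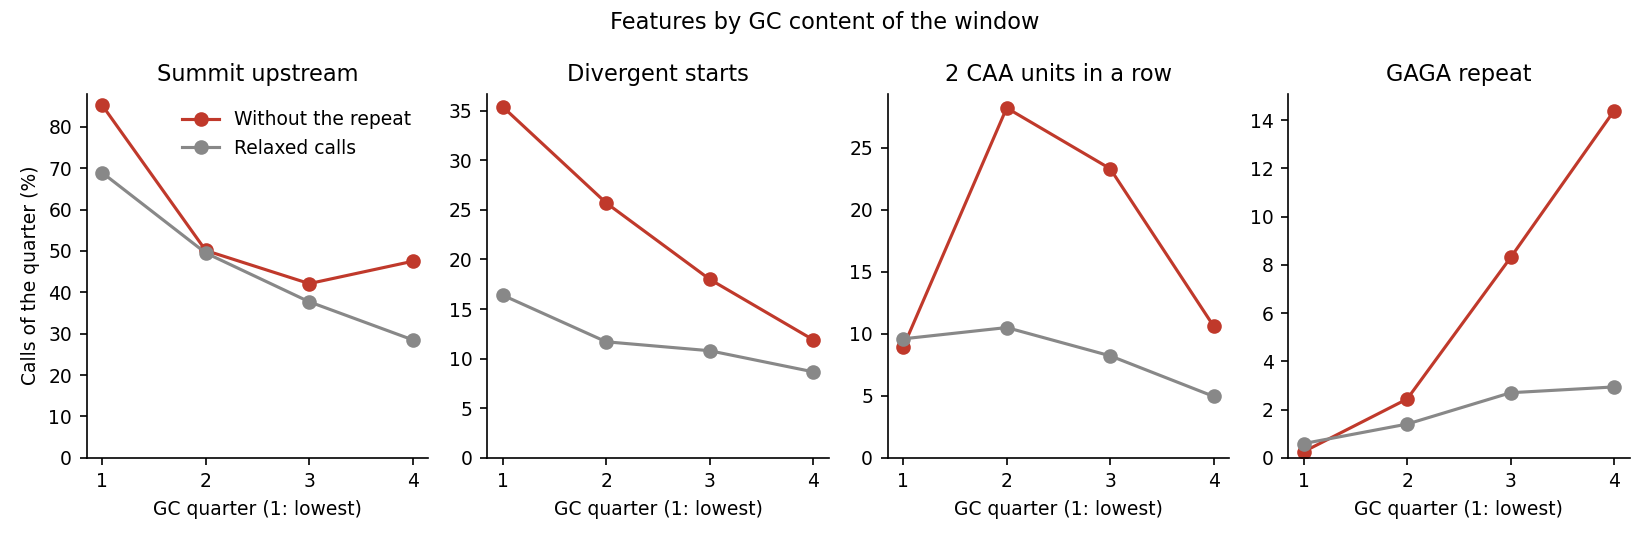
Share of promoter calls with 4 features in bins of GC content, from lowest to highest, for peaks without the repeat (red) and relaxed calls of the same GC range (grey). Upstream summits and divergent starts were most frequent in the lowest bin (85.2% and 35.4%), CAACAA in the second (28.2%) and the GA repeat in the highest (14.4%).

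Some peaks carried the repeat outside the window. It stood elsewhere in the deposited peak at 283 of the 1483 peaks without it (19.1%), against 7.45% of relaxed calls. Their median signal was 94.4 (56.2 and 45.7 in replicates 1 and 2), and that of the other 1200 was 86.4 (47.4 and 42.9). A conservative summit with the repeat lay within 500 bp of 68 peaks (4.59%). At the edge of the definition, 13 peaks had a summit 490 to 500 bp from a start, and 7 peaks without the repeat lay 501 to 510 bp away and were not members.

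Among the gene lists, cytosolic ribosomal protein genes had the highest share with a peak. Genes were counted by a summit at most 500 bp from any of their starts, which gives genes with several starts more chances to be counted. Of 13945 protein-coding genes, 1566 had a peak without the repeat (11.2%) and 847 a peak with it (6.07%), and 199 had both. Of 86 genes for cytosolic ribosomal proteins, 49 had a peak without the repeat (57.0%, 45.8 to 67.6) and 2 a peak with it (2.33%). The next highest share, 6 of 13 ecdysone response genes (46.2%, 19.2 to 74.9), had a wide interval that overlaps it. Genes named RpL had 28 of 48 and genes named RpS 20 of 37. Their signal was near that of all peaks without the repeat. Over the 49 genes the pooled signal had a lowest value of 33.6, a median of 85.1 and a highest of 235.5. In replicate 1 these were 26.2, 46.7 and 142.0, and in replicate 2 27.0, 43.5 and 92.2. The median distance of the summit from the nearest start was 34.0 bp.

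RpL34b was the strongest of them, at 235.5 (142.0 and 89.8), then RpL7 at 173.8 (87.8 and 92.2), RpL19 at 167.9 (99.4 and 73.3) and RpL30 at 147.9 (76.1 and 60.2). In the list of replicate 1 alone 31.4% of ribosomal protein genes had such a peak, against 8.81% of protein-coding genes, and in that of replicate 2 alone 29.1%, against 6.64%. At a stricter IDR of 0.001 the shares were 18.6% and 5.07%. The share of ribosomal protein genes was above that of protein-coding genes in each of these lists. No gene class was tested.

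The TCT initiator went with this class. Of the 46 peaks with TCT at the nearest start, 29 were at ribosomal protein genes. A TCT initiator was at an annotated start of 36 of the 49 ribosomal protein genes with such a peak (73.5%) and of 18 of the 37 without (48.6%).

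The strongest TCT start outside the class was that of Glys, and 3 ribosomal protein starts are set beside it to show the initiator, in capitals, on the strand of the gene. The Glys start is on the minus strand in chr3R:15147502-15147581.
Glys start: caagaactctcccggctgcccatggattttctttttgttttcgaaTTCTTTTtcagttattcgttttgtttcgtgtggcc
RpL32 starts on the minus strand in chr3R:30046132-30046211, and its peak had 138.9 (73.4 and 62.2).
RpL32 start: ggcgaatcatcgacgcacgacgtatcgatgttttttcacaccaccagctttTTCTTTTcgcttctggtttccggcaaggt
RpL28 starts on the minus strand in chr3L:3222931-3223010, and its peak had 116.1 (67.9 and 49.4).
RpL28 start: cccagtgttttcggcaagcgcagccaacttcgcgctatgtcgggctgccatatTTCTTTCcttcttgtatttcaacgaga
RpL14 starts on the plus strand in chr3L:8600956-8601056, and its peak had 115.6 (88.7 and 37.6).
RpL14 start: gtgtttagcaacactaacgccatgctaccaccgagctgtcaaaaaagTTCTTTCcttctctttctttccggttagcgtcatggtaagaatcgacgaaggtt
The carriers chosen for the other 2 elements were tank for GATAAG, at chr2L:4837784-4837874, and a peak near lncRNA:CR44723 for A tracts, at chr3L:11324611-11324711, both on the forward strand.
tank: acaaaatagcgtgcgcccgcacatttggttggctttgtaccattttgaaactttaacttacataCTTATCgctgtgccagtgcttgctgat
lncRNA:CR44723: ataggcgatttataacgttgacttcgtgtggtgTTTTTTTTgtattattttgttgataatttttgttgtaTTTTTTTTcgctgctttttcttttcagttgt

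Most other housekeeping lists lay nearer to the share of all genes. Translation initiation factors had 10 of 44 (22.7%), led by eIF6 at 344.5 (180.9 and 163.0), and mitochondrial ribosomal proteins 10 of 73 (13.7%), led by mRpS10 and mRpS23, both in divergent pairs. General transcription factors had 5 of 28 (17.9%), Mediator 5 of 29 (17.2%), and RNA polymerase subunits 5 of 30 (16.7%), led by Polr1D at 333.6. Spliceosome proteins had 5 of 34 (14.7%), the respiratory chain 6 of 85 (7.06%), the proteasome 2 of 43 (4.65%), and neither the chaperonin CCT (0 of 8, upper limit 36.9%) nor mitochondrial import (0 of 18, 18.5%) had any. Over all housekeeping lists, 125 of 705 genes had a peak without the repeat (17.7%) and 43 a peak with it (6.10%). Without the cytosolic ribosomal proteins these were 76 of 619 (12.3%) and 41 (6.62%), near the shares of all protein-coding genes. The lists for nuclear pore (3 of 24), DNA replication (2 of 30), cell cycle (6 of 32), Rab GTPases (3 of 33), vesicle sorting (3 of 30), autophagy (4 of 20), ubiquitin conjugation (5 of 25) and aminoacyl-tRNA synthetases (2 of 35) are part of that sum.

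Lists of chromatin and developmental genes had shares above that of all protein-coding genes, both without and with the repeat. Genes of chromatin lists had a peak without the repeat in 14 of 40 (35.0%) and with it in 7 (17.5%). Among Polycomb and trithorax genes, 9 of 25 had one, led by ph-p at 620.3, Psc at 337.0, both parts of Polycomb repressive complex 1, brm, the remodelling ATPase, at 261.4 (107.5 and 154.3), and Trl, which makes GAGA factor, at 205.6. Insulator and promoter-binding proteins had 6 of 16, with Chro at 613.4, Cp190 at 154.4 and BEAF-32 at 113.1. Developmental lists together had 50 of 190 (26.3%) without the repeat and 42 (22.1%) with it. Homeobox genes had 13 of 54 (24.1%), led by toy, oc, caup and vvl at 460.0 (274.6 and 177.4).

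Among signalling lists, 4 had shares without the repeat above the 11.2% of all protein-coding genes. Notch pathway genes had 8 of 21 (38.1%), with mam, a coactivator, at 144.4 and numb, an inhibitor, at 125.8. Ecdysone response genes had 6 of 13 (46.2%), with Hr3 at 208.5 and the receptor gene EcR at 86.2. Signalling genes of the EGFR, JAK/STAT, JNK and Hippo list had 8 of 33 (24.2%), with the ligand gene spi at 461.3 and kay, the fly Fos, at 249.9 (42.5 and 135.8). Insulin and TOR genes had 5 of 16, with Thor, a translation inhibitor, at 205.7. The 95% intervals of the EGFR list (11.1 to 42.3) and of insulin and TOR (11.0 to 58.7) include 11.2%. Those of Notch (18.1 to 61.6) and ecdysone (19.2 to 74.9) lie above it. With the repeat, Notch had 23.8%, ecdysone 23.1%, the EGFR list 30.3% and insulin and TOR 18.8%, against 6.07% of all protein-coding genes. Segmentation and Hox genes had 7 of 30 (23.3%), with cad at 211.0 and odd at 143.8. Proneural and neuroblast genes had 3 of 24 (12.5%) without the repeat and 8 (33.3%) with it. All 3 of those without it, grh, brat and insc, also had a peak with the repeat. At brat the peak without the repeat had 90.5 and the one with it 964.8.

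Few tissue-restricted genes had a peak. None of 180 odorant, gustatory and ionotropic receptor genes had a peak without the repeat (upper limit 2.03%) and none had one with it. Cuticle genes of the Cpr family had 1 of 70 (Cpr73D, 63.0), cytochrome P450 genes 2 of 81, ion channel genes 1 of 32 (sei, 76.1) and muscle genes 2 of 21 (sls at 108.3 and Zasp52 at 76.5). Together these lists had 6 of 384 (1.56%) without the repeat and 2 (0.521%) with it. Heat shock genes had 4 of 25, all without the repeat (16.0%, 95% interval 4.54 to 36.1). That interval includes the 11.2% of all protein-coding genes. Hsp27 had 279.7 (100.5 and 168.2) and Hsp83 171.4 (91.7 and 75.4).

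Small noncoding RNA genes were unevenly covered. Of 32 snRNA genes, which make the RNAs of the spliceosome and 7SK, 8 had a peak without the repeat and none had one with it. These 8 made 25.0% of snRNA genes (95% interval 11.5% to 43.4%), against 11.2% for protein-coding genes. The strongest was snRNA:U1:95Ca at 130.2 (83.4 and 64.3), then snRNA:U1:21D at 128.0 (55.9 and 74.9) and snRNA:7SKa at 120.0 (55.4 and 60.2). Genes for tRNA had 19 of 290 (6.55%) and 5 with the repeat, led by tRNA:Tyr-GTA-1-8 at 270.0 (132.3 and 141.2). Genes for snoRNA had 21 of 269 (7.81%), where snoRNA:Or-CD11a at 116.1 shared its peak with RpL28 and eIF1. Other noncoding RNA genes had 149 of 3261 (4.57%) and pseudogenes 3 of 268 (1.12%). Many copies of U1, U2 and tRNA genes are nearly identical, so reads may have been placed on the wrong copy.

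**Figure D5:**
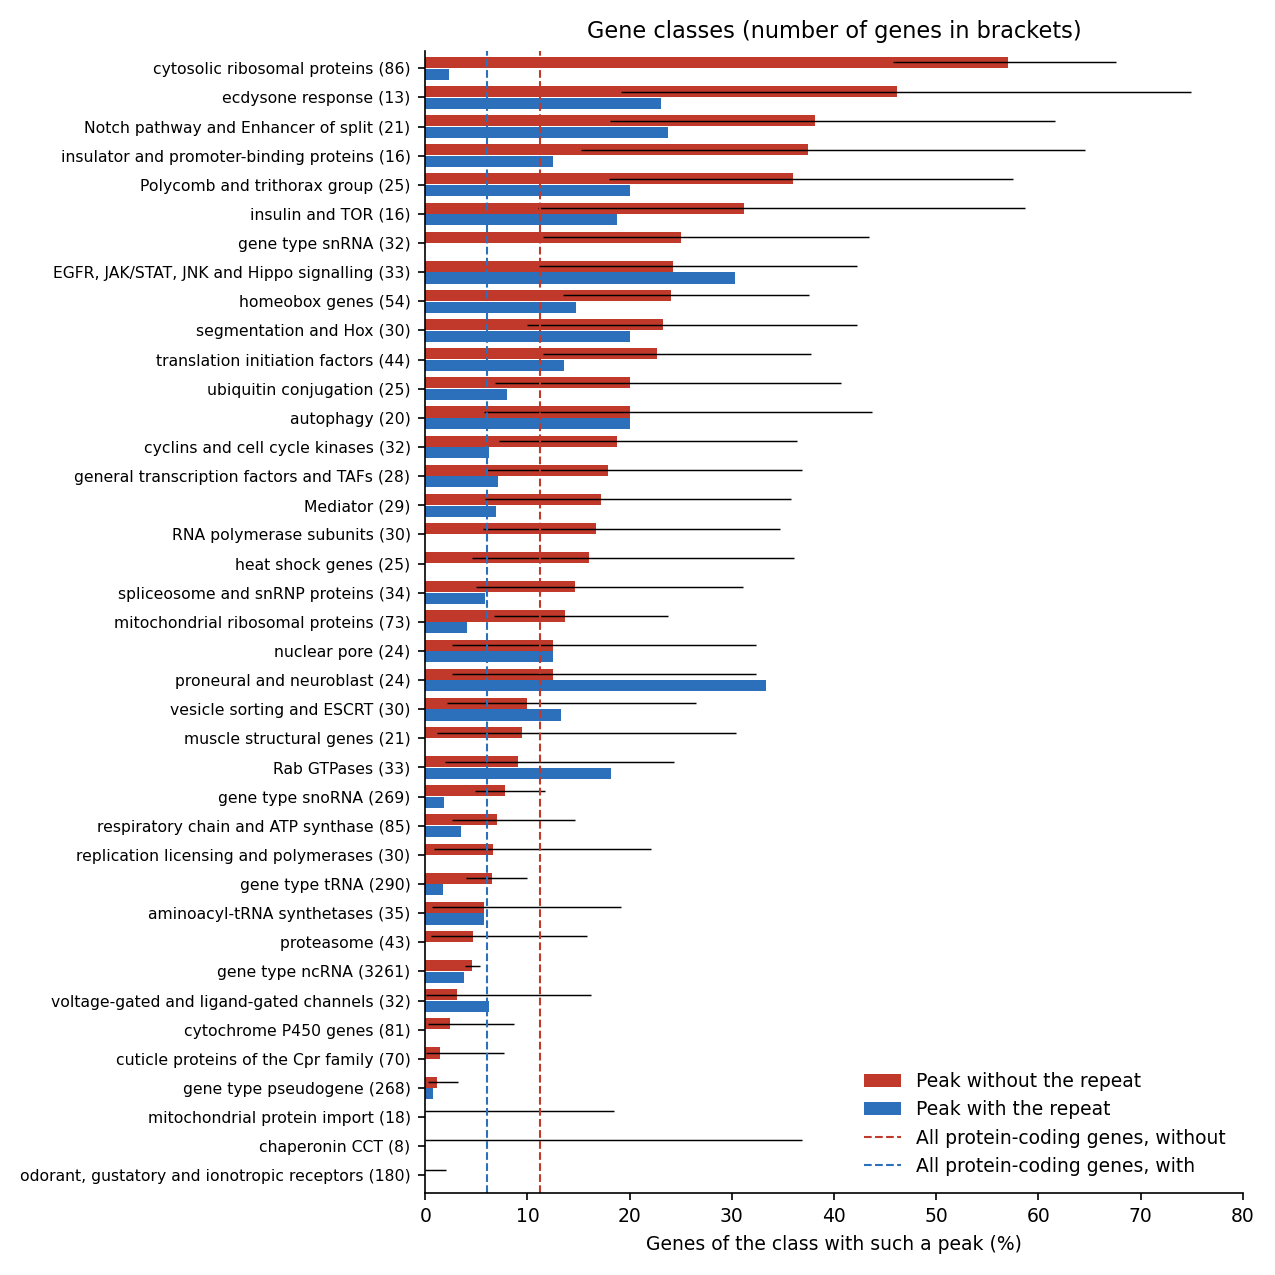
Share of genes in each class with a peak without the repeat (red, with exact 95% intervals) and with the repeat (blue). Dashed lines mark all protein-coding genes, at 11.2% and 6.07%, and cytosolic ribosomal proteins stood at 57.0% and 2.33%.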

How the data were processed

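The authors deposited lists of peaks on dm6, per the labels, from each of 2 biological replicates and from both together. Neither the aligner nor the peak caller is named in the sources used here. Peaks were taken from the conservative thresholded list, and each carries the signal value that the authors deposited, which is a peak's own value. The ranked lists that the authors deposited gave −log10 of the global IDR, with at least 2 at every peak used. Replicate values were taken from each replicate's own ranked list by the coordinates of the match, so neighbouring summits can share them.

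Starts came from Ensembl release 115, without its 5809 entries for transposable elements. Shares of 47 or 48 features (30 motifs, positions, gene types and arms), of 8191 words of 7 bases and of 34 gene lists were computed. Features and words were tested with 2-sided Fisher exact tests, adjusted by the Benjamini-Hochberg method at 0.05 within each family. Odds ratios had 0.5 added to each cell where one was 0, and intervals on shares are exact binomial 95% intervals, which cover counting error only. Read depth is unknown. The members, lists and comparisons were chosen with earlier results of these data known. Named were the 15 strongest and 3 weakest peaks, up to 4 genes per list by signal, every feature past the threshold against peaks with the repeat, the 5 words of lowest p that did not overlap a better one by 5 or more bases, and up to 6 divergent pairs. A peak is named after the protein-coding gene with the nearest start, except where a noncoding start is named. The word test was checked on simulated data. Alternatives were other distances, windows, thresholds and lists. Python 3.11.15, numpy 2.4.6, pandas 2.3.3, scipy 1.17.1 and matplotlib 3.10.9 were used.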

Additional observations from a re-analysis of the deposited data

Results flagged for a closer look

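The ranked conservative list held 47 promoter calls without the repeat that passed its IDR threshold and are absent from the thresholded list, so they are in none of the comparisons above. Their median signal was 92.7, with a lowest of 7.26 and a highest of 361.5, while the 1483 peaks of the thresholded list had a median of 87.4. The labels and files do not say why.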

How the results depend on the processing

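Of 239 repeats of the 17 features that differed from peaks with the repeat, 204 kept the call, 35 lost it and none reversed. Of 308 repeats of the 22 against relaxed calls, 283 kept it and 25 lost it. Without either replicate, the list of the other was used. The members were then 876 to 1146 of 1483, features less frequent than with the repeat 5 to 8, divergent odds ratios 2.27 to 2.46, and words less frequent than in relaxed calls 51 to 71. The signal ratio was 0.427 to 0.541, protein-coding genes 926 to 1228, and ribosomal protein genes 29.1% to 31.4%. At an IDR of at most 0.001 there were 616 members, a signal ratio of 0.558, 707 protein-coding genes, 18.6% of ribosomal protein genes and 21 words less frequent. With 250 bp to a start, 5 features were more frequent than with the repeat, 76 words were more frequent and 20 less frequent. With 1000 bp these word counts were 443 and 431, with windows reaching 100 bp from the summit 472 and 572, and against flanking windows 54 and 13. With gene 5′ ends only, 71 words were less frequent. In windows of 40 to 50% GC, added after seeing the data, 3 features were more frequent and 5 less frequent than with the repeat, 2 were less frequent than in relaxed calls, and the divergent ratio was 1.54. Fewer peaks were left under several of these settings, and no other cause was tested. Against peaks with the repeat, odds ratios of AAACAAC (0.302), CAACAAA (0.362) and CAAAAAC (0.748) reversed, and the first and second of these words are parts of the repeat with a base added.

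No paired analysis was possible because there was 1 group. Types of start could not be compared with protein-coding starts only, nor near copies once left out. The pooled list was compared only with its own peaks with the repeat. Also tried after seeing the data were starts of transposable elements, relaxed calls over 500 bp from every summit, and leaving out peaks with a signal below both replicates. Unknown read depth limits statements on weak peaks.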
